A study of Mus musculus with 24 samples.

Results

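Homeostatic microglia genes are genes that the resident macrophages of the brain express while they survey healthy tissue, and 9 of them were followed here in the hippocampus of aged mice, P2ry12, P2ry13, Gpr34, Cx3cr1, Csf1r, Siglech, Tmem119, Olfml3 and Sall1. They were found as the rows with these symbols in the count tables, 9 of 49568 gene symbols, and each symbol was present once in all 24 libraries. The RNA came from the hippocampi of single male mice of C57-Bl/6J background aged 21 to 23 months, 1 library per mouse. The 4 groups were WT mice in standard housing (WTSH), WT mice in enriched housing (WTEE), MSK1 KD mice in standard housing (KDSH) and MSK1 KD mice in enriched housing (KDEE). MSK1 KD mice carry a point mutation in their own MSK1 gene in every cell of the body, which removes a kinase activity of the protein and is not read by gene counts, and WT and MSK1 KD mice were bred as separate lines. Enrichment began at 18 months of age, when mice were moved to large rat cages fitted with toys, tubes, a ladder and a wheel to run in. Enriched cages also held more males than standard cages. The labels do not name the cage of a mouse, so cage cannot be told apart from housing. The study kept 21 libraries, 4 of WTSH, 6 of WTEE, 5 of KDSH and 6 of KDEE, and left out WTSH mice 4 and 7 and KDSH mouse 6, which are given apart at the end.

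Microglia enter the brain early in development and renew themselves there, and signalling through the receptor of colony-stimulating factor 1 keeps them alive. Their surveying state depends on transforming growth factor beta and on the transcription factor SALL1, and is marked by receptors for nucleotides and for the neuronal chemokine CX3CL1. When microglia respond to damage, plaques or myelin debris, they commonly lower these genes and raise another set, the disease-associated microglia genes. The library of a whole hippocampus holds the RNA of neurons, glia, vessels and microglia together, so that fewer microglia and less RNA of a gene per microglial cell cannot be told apart.

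The promoters are shown for the 3 genes of a closely covarying set of receptors, described below, for which the table of promoters used here had an entry. Each runs 5′ to 3′ from 250 bases before to 50 after a start site of transcription in RefSeq (GRCm38.p6). The capitals mark the letters GAGGAA, the core bound by PU.1, the factor that directs genes of macrophages, or TTCCTC where it lies on the opposite strand. The windows are chr3:59210833-59211132 on the minus strand for P2ry13, chr7:55767934-55768233 on the plus strand for Siglech and chr3:59262936-59263235 on the minus strand for P2ry12.
P2ry13: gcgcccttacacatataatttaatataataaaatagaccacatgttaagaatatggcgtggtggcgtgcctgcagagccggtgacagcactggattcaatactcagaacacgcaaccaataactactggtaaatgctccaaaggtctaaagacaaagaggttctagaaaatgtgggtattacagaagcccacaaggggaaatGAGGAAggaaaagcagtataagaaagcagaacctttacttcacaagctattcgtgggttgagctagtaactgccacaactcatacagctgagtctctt
Siglech: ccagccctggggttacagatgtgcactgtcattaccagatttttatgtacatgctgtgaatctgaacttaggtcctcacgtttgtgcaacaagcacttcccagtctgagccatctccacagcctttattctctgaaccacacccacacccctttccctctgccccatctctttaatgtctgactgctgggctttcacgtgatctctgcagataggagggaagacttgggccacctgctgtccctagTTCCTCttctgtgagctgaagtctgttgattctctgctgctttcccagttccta
P2ry12: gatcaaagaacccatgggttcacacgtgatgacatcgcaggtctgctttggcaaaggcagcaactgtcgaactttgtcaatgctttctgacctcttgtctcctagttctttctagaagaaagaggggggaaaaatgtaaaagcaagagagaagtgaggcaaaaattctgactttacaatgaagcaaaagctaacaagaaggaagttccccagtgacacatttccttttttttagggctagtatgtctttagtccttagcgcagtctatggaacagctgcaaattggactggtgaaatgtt
The core began 48 bases before the start site in P2ry13 and 4 bases before it in Siglech, and was not in these letters of P2ry12. Promoters were found for 6 of the 9 genes, and 2 of the 6 held the core, against 31.3% of the 27025 genes with a promoter in the table. None of the 6 held the AP-1 site TGANTCA, the composite site of PU.1 and IRF factors or the site TGACGTCA, to which the MSK1 target CREB binds, against 8.97%, 3.16% and 2.03% of all genes, on either strand. Gpr34, Csf1r and Tmem119 had no entry.

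The 9 genes were well measured. Counts of a gene in a kept library ranged from 309 for Gpr34 to 8938 for Csf1r, and the counting error at the lowest count of each gene was between 1.58% and 5.69%. Levels are given as counts per 1000000 counts on genes scaled by TMM (CPM), a factor that corrects for the composition of each library. Per kilobase of exon, Csf1r stood first with a median of 23.0 CPM per kb over the 21 mice and was above P2ry12 in every mouse. P2ry12 (13.9 CPM per kb), Tmem119 (13.6) and Cx3cr1 (13.3) followed with overlapping ranges, and all 21 mice had Cx3cr1 above Sall1 (6.09 CPM per kb). Sall1, Siglech (5.38), Gpr34 (5.30), P2ry13 (5.26) and Olfml3 (4.23) overlapped with their neighbours in this order. With the length of the principal transcript in place of all exons, Siglech (8.52 CPM per kb) moved ahead of Sall1 and the rest kept their order. On GRCm38 (GENCODE M21), P2ry12 (chr3:59216272-59262871) and P2ry13 (chr3:59207892-59210882) lie on the minus strand of the same chromosome, Gpr34 is at chrX:13632089-13640858, Cx3cr1 at chr9:119901616-120069879, Sall1 at chr8:89027235-89044162, Tmem119 at chr5:113793729-113800516, Siglech at chr7:55768178-55778925 and Olfml3 at chr3:103722222-103738001. Reads were counted without regard to strand, and 3 of the genes share exon bases with a gene on the other strand, 9 bases of P2ry12 with Med12l, 78 of Cx3cr1 with Gm33858 and 873 of Csf1r with Hmgxb3. P2ry13 lies in an intron of Med12l and Gpr34 in an intron of Cask.

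How far the levels moved between mice differed from gene to gene. The ratio of the highest to the lowest of the 21 libraries was 1.35 for Csf1r, the narrowest, and 2.17 for Olfml3, the widest, with Sall1 (2.15) and Tmem119 (2.08) close to it. The SD of the log2 level within groups was 0.11 for Csf1r and 0.26 for Tmem119, with a median of 0.17 over the 9 genes and 0.21 over all 20187 genes tested. Of all genes, 60.7% had a smaller SD than Tmem119, 59.1% than Olfml3, 55.0% than Sall1 and 52.6% than Gpr34. For the rest of the 9 this share lay between 18.7% (Csf1r) and 39.2% (P2ry13). Differences between the group means held 10.04% of the spread of Gpr34 and 30.0% of that of Cx3cr1, with a median of 19.6% over the 9 genes and 16.1% over all genes.

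**Figure D1:**
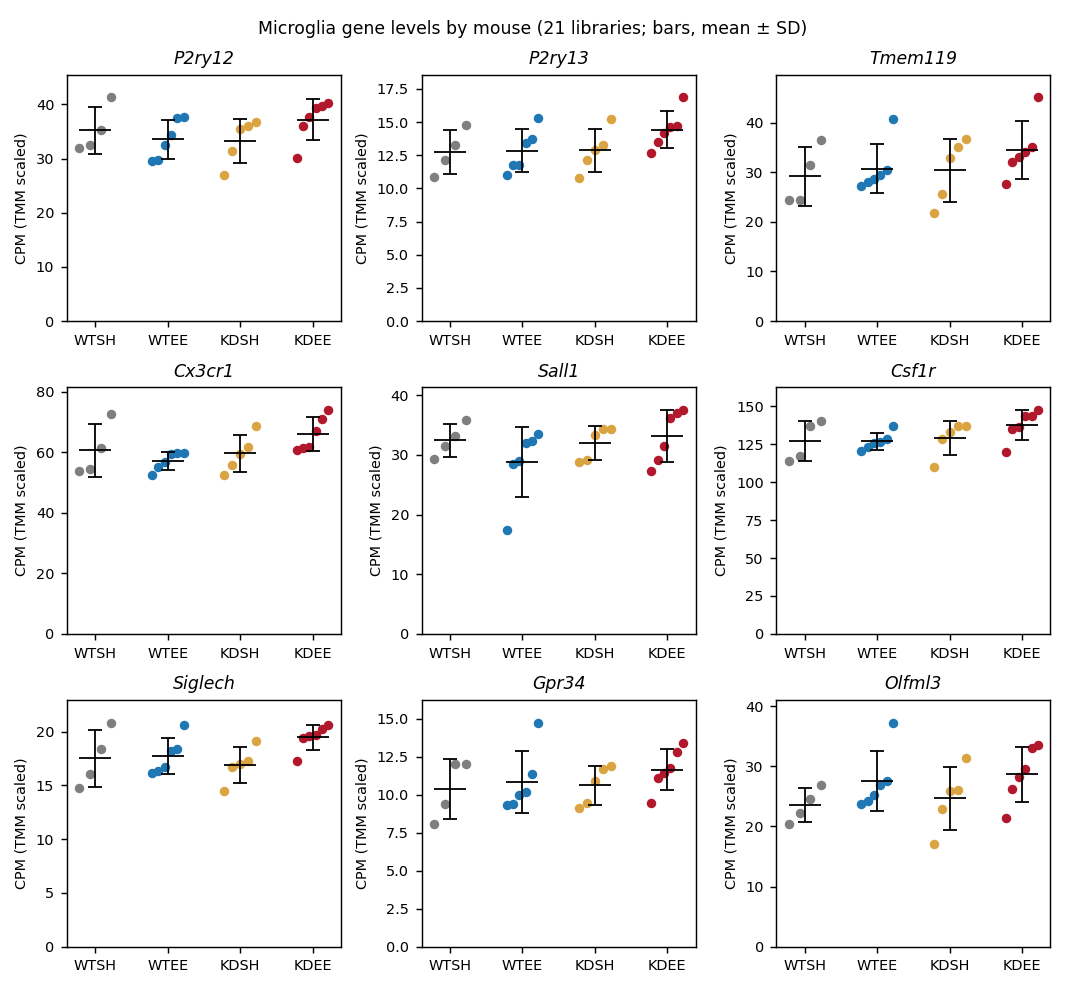
Level of each of the 9 genes in the 21 kept mice, in CPM on axes that start at 0, by group; points are mice, the wide bar is the group mean and the error bars are the SD (n = 4, 6, 5 and 6). The groups overlap for every gene except Cx3cr1 in KDEE (lowest 60.8) and WTEE (highest 59.8), and WTEE mouse 10 stands apart at 17.5 for Sall1 and 37.3 for Olfml3.

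The first question was whether enrichment or the loss of MSK1 kinase activity changed these genes. A gene was called at an adjusted p value under 0.05 (edgeR's quasi-likelihood test, Benjamini-Hochberg over 20187 genes) and an absolute log2 fold change over 0.38. None of the 9 was called in any of the 7 contrasts, and every log2 difference lay between −0.17 and 0.23. The test called 0% of all genes in each of the 4 comparisons of groups, 0% for genotype and for the interaction, and 0.00495% (1 gene) for enriched against standard housing. At an unadjusted p value under 0.05, the members numbered 0 of 9 for WTEE against WTSH (background 6.55% of all genes), 1 for KDEE against KDSH (11.6%), 0 for KDSH against WTSH (1%) and 1 for KDEE against WTEE (4.99%). They numbered 1 of 9 for enriched against standard housing over both genotypes (18.9%), 0 for MSK1 KD against WT over both housings (1.90%) and 0 for the interaction (3.26%). DESeq2's Wald test on the same libraries also called none of the 9, although it called 2, 14, 0 and 118 genes in the 4 comparisons of groups in the order given and 41 genes for housing.

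All 9 genes had their highest group mean in KDEE. The share of all genes with their highest mean in KDEE was not counted. Of all genes, 50.4% were above 0 between KDEE and KDSH and 50.5% between KDEE and WTEE. The log2 differences of KDEE from KDSH ranged from 0.05 to 0.22 with a median of 0.16 (median of all genes 0.00), and those of KDEE from WTEE from 0.06 to 0.21 with a median of 0.15 (all genes 0.00). With the level of the choroid plexus genes as a covariate, the differences of KDEE from KDSH ranged from 0.03 to 0.15 with a median of 0.07. Tmem119 then had 0.05 in place of 0.18, Gpr34 0.04 in place of 0.13, Olfml3 0.08 in place of 0.22 and P2ry13 0.07 in place of 0.16, and none of the 9 had an unadjusted p under 0.05. Between KDEE and WTEE the same covariate gave 0.03 to 0.20 with a median of 0.14. Markers of other cell types stood above 0 in part as well. Between KDEE and KDSH, 7 of 7 oligodendrocyte markers were above 0 with a median log2 difference of 0.28 (6 at an unadjusted p under 0.05), and 7 of 7 astrocyte markers with a median of 0.12 (1 at such a p). Between KDEE and WTEE, 5 of 7 astrocyte markers were above 0 with a median of 0.18 (3 at such a p), and 5 of 7 oligodendrocyte markers with a median of 0.02 (0 at such a p). Of 7 endothelial and pericyte markers, 7 were above 0 between KDEE and KDSH and 2 between KDEE and WTEE, and of 8 neuronal markers 2 and 5. All 4 oligodendrocyte precursor markers were above 0 in both comparisons, with medians of 0.15 and 0.15, close to those of the 9 genes. The part of these cells in the differences of the 9 genes was not tested. Of 30 other microglia genes, 27 were above 0 between KDEE and KDSH (median 0.20) and 15 between KDEE and WTEE (median 0.01). Of 12 disease-associated microglia genes these were 11 (median 0.32) and 5 (median −0.04), and of 9 border macrophage markers 9 (median 0.27) and 2 (median −0.08). The comparisons share the KDEE mice, and genes that covary between mice tend to take the same sign together. In WTEE against WTSH, 5 of 9 were above 0 with a median of 0.01, and in KDSH against WTSH 5 of 9 with a median of 0.01. The 95% intervals excluded a log2 difference of 0.38 or more in either direction for P2ry12, P2ry13, Cx3cr1 and Csf1r in all 4 comparisons, and reached furthest for Olfml3 in WTEE against WTSH (−0.09 to 0.54).

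**Figure D2:**
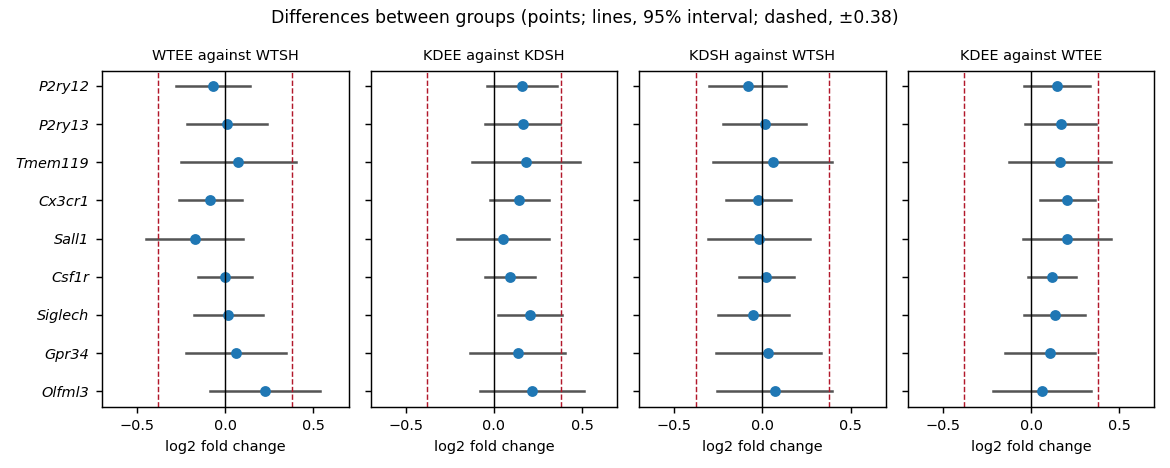
Log2 fold change of each gene in the 4 comparisons of groups (points) with the 95% interval of edgeR's fit (lines); the dashed lines are the fold thresholds at −0.38 and 0.38. Every point lies inside the thresholds, and the interval leaves 0 for Siglech in KDEE against KDSH and for Cx3cr1 in KDEE against WTEE only.

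P2RY12 and P2RY13 are receptors for ADP, and P2RY12 steers microglial processes toward ATP released at a site of injury. P2ry12 had 31.9, 32.5, 35.2 and 41.4 CPM in the WTSH mice and 27.1, 31.3, 35.4, 36 and 36.7 in the KDSH mice. In the enriched groups it ranged from 29.5 (lowest) over a median of 33.4 to 37.8 (highest) in WTEE, and from 30.1 over 38.5 to 40.3 in KDEE. The 4 ranges overlapped, and 5 of the 6 KDEE mice were above the median of the 21 mice, 35.4, with mouse 20 the exception. P2ry13 had means of 12.8 ± 1.65 CPM in WTSH (SD, n = 4), 12.8 ± 1.62 in WTEE (n = 6), 12.9 ± 1.63 in KDSH (n = 5) and 14.4 ± 1.42 in KDEE (n = 6). Its log2 difference of KDEE from WTEE was 0.17 ± 0.10 (SE, edgeR adjusted p = 0.957), and that of P2ry12 was 0.15 ± 0.09 (adjusted p = 0.957). GPR34, a receptor for lysophosphatidylserine, was the least abundant by counts, with 10.4 ± 1.97 CPM in WTSH, 10.8 ± 2.04 in WTEE, 10.6 ± 1.28 in KDSH and 11.7 ± 1.38 in KDEE (SD).

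CX3CR1 is the receptor through which neurons, the source of CX3CL1, signal to microglia. Cx3cr1 had 53.9, 54.6, 61.3 and 72.5 CPM in WTSH and 52.4, 55.9, 59.4, 61.9 and 68.6 in KDSH. It ranged from 52.4 over a median of 58.0 to 59.8 in WTEE and from 60.8 over 64.4 to 74.0 in KDEE. Every KDEE mouse was above every WTEE mouse, if only just for the nearest of them, while WTSH and KDSH spanned both. Such groups that do not overlap were seen for 1 of 9 genes here and for 0.624% of all genes, and between KDEE and KDSH for 0 of 9 and 1.84%. The log2 difference of KDEE from WTEE was 0.21 ± 0.08 (SE), with an unadjusted p of 0.0131 and an edgeR adjusted p of 0.619. Leaving out each of the 21 mice in turn moved it between 0.17 and 0.23. The interaction, which sets the effect of enrichment in MSK1 KD mice against that in WT mice, was 0.23 ± 0.12 for Cx3cr1 (SE, unadjusted p = 0.0628, edgeR adjusted p = 0.9999). Its ligand gene Cx3cl1 had a log2 difference of 0.01 ± 0.09 between KDEE and WTEE and −0.05 ± 0.07 between enriched and standard housing (SE).

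CSF1R is the receptor for the growth factors CSF1 and IL-34 on which microglia depend. Csf1r, the most abundant and steadiest of the 9, had 114.0, 117.3, 136.8 and 140.1 CPM in WTSH and 109.7, 128.6, 132.7, 136.9 and 137.3 in KDSH. It ranged from 120.3 over a median of 126.0 to 136.7 in WTEE and from 119.7 over 140.0 to 147.7 in KDEE. WTEE and KDEE overlapped, and the KDEE mice 12, 14 and 22 were above the highest WTEE mouse. The log2 difference of KDEE from WTEE was 0.12 ± 0.07 (SE, edgeR adjusted p = 0.957). In the same comparison the ligand genes had log2 differences of 0.06 ± 0.09 for Csf1 and −0.01 ± 0.08 for Il34 (SE).

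SIGLECH is a receptor of the Siglec family, TMEM119 a membrane protein used to tell microglia from other macrophages, and OLFML3 a secreted matrix protein. Siglech had 14.8, 16.1, 18.4 and 20.8 CPM in WTSH and 14.5, 16.7, 17, 17.2 and 19.1 in KDSH. It ranged from 16.2 over a median of 17.5 to 20.6 in WTEE and from 17.3 over 19.6 to 20.6 in KDEE. KDEE mice were above all KDSH mice except for mouse 20, which lay inside the KDSH range. The log2 difference of KDEE from KDSH was 0.20 ± 0.09 (SE, unadjusted p = 0.0302, edgeR adjusted p = 0.400). The unadjusted p was under 0.05 in 17 of the 21 fits that left out a mouse and highest without KDSH mouse 24 (0.103), and with the level of the choroid plexus genes as a covariate it was 0.109.

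Olfml3 had 20.4, 22.2, 24.5 and 26.9 CPM in WTSH, 17.1, 22.9, 25.9, 26.0 and 31.4 in KDSH, 23.7 over a median of 26.1 to 37.3 in WTEE, and 21.3 over 28.9 to 33.6 in KDEE. The enriched groups overlapped with both standard groups. Over both genotypes the log2 difference of enriched from standard housing was 0.22 ± 0.10 (SE, unadjusted p = 0.0442, edgeR adjusted p = 0.258), and the unadjusted p was under 0.05 in 10 of the 21 fits that left out a mouse. With the choroid plexus covariate the difference for housing was 0.14 with an unadjusted p of 0.167. Tmem119 spread most within groups, with 29.2 ± 5.89 CPM in WTSH, 30.7 ± 5.02 in WTEE, 30.4 ± 6.40 in KDSH and 34.5 ± 5.85 in KDEE (SD). WTEE mouse 10 had 40.7 CPM of Tmem119, against 27.2 to 30.5 in the other WTEE mice.

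SALL1 is a transcription factor that among the immune cells of the brain is restricted to microglia and holds their identity. Sall1 had 29.3, 31.5, 33.1 and 35.8 CPM in WTSH and 28.8, 29.2, 33.3, 34.3 and 34.4 in KDSH. It ranged from 27.3 over a median of 33.8 to 37.5 in KDEE, and in WTEE from 17.5 over 30.5 to 33.4. WTEE mouse 10 alone made the low end, since the next lowest of the 21 libraries was KDEE mouse 20 at 27.3. The log2 difference of WTEE from WTSH was −0.17 ± 0.13 (SE, edgeR adjusted p = 0.660) and was −0.06 without that mouse. The log2 difference of Sall1 between KDEE and WTEE went from 0.20 ± 0.12 (SE, edgeR adjusted p = 0.957) to 0.10.

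The clearest structure lay between mice rather than between groups. After the group means were subtracted, the 36 pairs of the 9 genes had a median Pearson's r of 0.63 over the 21 mice, from −0.14 to 0.88, and 33 were above 0. In permutations of the mice within groups, 23 pairs had an adjusted p under 0.05 for r and 23 for Spearman's rho, with adjustment over the 36 pairs. High r was not rare over all genes: its middle 95% reached up to 0.54 for Cx3cr1 and 0.78 for Sall1, the lowest and highest of the 9. Among all genes, the other 8 members had a median percentile of r of 93.3 (Tmem119) to 99.8 (P2ry12), except for Sall1 (51.9). The share of pairs of other genes with such a p was not tested. P2ry13 and Siglech were the closest pair (r = 0.88, permutation p = 1e-05, the smallest that 100000 permutations can give, adjusted p = 0.000216; rho = 0.81, permutation p = 0.00021, adjusted p = 0.000687), and r was 0.82 without the 2 mice farthest from the median of P2ry13. P2ry12, P2ry13, Siglech and Gpr34 formed pairs of r between 0.81 and 0.88. Csf1r, Tmem119 and Olfml3 formed another set with pairs between 0.84 and 0.88. Tmem119 and Olfml3 had r = 0.88 (permutation p = 3e-05, adjusted p = 0.000216) and rho = 0.89 (permutation p = 3e-05, adjusted p = 0.00036), and r = 0.84 without the 2 mice farthest from the median of Tmem119. Csf1r was close to the receptor set as well, with r between 0.71 and 0.79 to its 4 genes. These sets were read from the same correlations and have no test of their own.

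**Figure D3:**
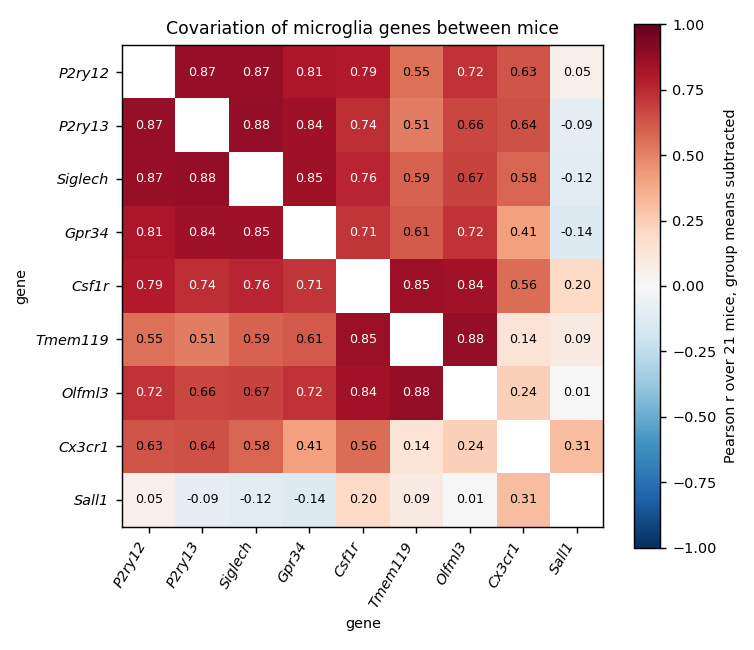
Pearson's r of each pair of the 9 genes over 21 mice, on log2 CPM with group means subtracted; both axes list the genes and red is positive. The genes from P2ry12 to Gpr34 and from Csf1r to Olfml3 form blocks of high r, from 0.81 and from 0.84 up, and the row of Sall1 lies between −0.14 and 0.31.

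Cx3cr1 and Sall1 moved less with the others. Cx3cr1 had a median r of 0.48 with the other 8 genes, highest with P2ry13 (0.64; permutation p = 0.00488, adjusted p = 0.00976; rho = 0.61, permutation p = 0.00662, adjusted p = 0.0147; r = 0.80 without the 2 farthest mice) and lowest with Tmem119 (0.14; permutation p = 0.616, adjusted p = 0.706; rho = 0.24, permutation p = 0.365, adjusted p = 0.424; r = 0.41 without the 2 farthest mice). Sall1 had a median r of 0.03 with the other 8. That value rested on 1 mouse. Without WTEE mouse 10 the median r of Sall1 was 0.53 and all 8 of its correlations were above 0, while leaving out any other mouse gave at most 0.09. The weaker covariation of Cx3cr1 depended on the same mouse. Without it the median r of Cx3cr1 was 0.67, within the medians of the other genes, from 0.50 (Tmem119) to 0.77 (P2ry13). With Tmem119, r of Sall1 was 0.09 (permutation p = 0.664, adjusted p = 0.724; rho = 0.40, permutation p = 0.0663, adjusted p = 0.0896) and 0.74 without the 2 mice farthest from the median of Tmem119, of which WTEE mouse 10 was one.

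WTEE mouse 10 had the highest level of 7 of the 9 genes in its group and the lowest of the other 2, Cx3cr1 and Sall1. Its levels of Gpr34 (14.7 CPM) and Olfml3 (37.3 CPM) were the highest of the 21, and its levels of Sall1 (17.5 CPM) and Cx3cr1 (52.4 CPM) the lowest. Other gene lists stood at the ends of their ranges in the same library. The summed level of 30 other microglia genes was 1641 CPM and that of 7 endothelial and pericyte markers 429 CPM, and that of 12 disease-associated microglia genes 3941 CPM (next highest mouse 2873), each the highest of the 21. Of the 3941 CPM, Apoe alone gave 3625, against a median of 2025 CPM for Apoe over the 21 mice. The summed levels of 8 neuronal markers (5096 CPM), 7 astrocyte markers (3798 CPM) and the 13 ligand and upstream genes (955 CPM) were the lowest. Its share of read pairs that fell on more than 1 gene, 6.57%, was the highest of the 21 libraries (median 4.45%). Its choroid plexus genes summed to 5345 CPM, rank 3 from the highest of the 21. Structural RNA took 1.37% of its counts on genes against a median of 0.27%, and its summed level had rank 2. The part of these features in the levels of the 9 genes was not tested. Without this mouse, 4 of the 9 genes had an unadjusted p under 0.05 for KDEE against WTEE in place of 1, namely P2ry13, Cx3cr1, Csf1r and Siglech, with log2 differences of 0.23, 0.18, 0.14 and 0.18 and edgeR adjusted p values of 0.788 to 0.861. The share of all genes at such a p without this mouse was not counted, so this number has no background beside it. In WTEE against WTSH, 8 of the 9 differences were then below 0, and none of the 9 had an unadjusted p under 0.05.

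Single mice at the low end were low for nearly all genes. KDEE mouse 20 was the lowest of its group for 9 of 9 genes, KDSH mouse 24 for 8 of 9 and WTSH mouse 23 for 7 of 9. KDSH mouse 24 was the lowest of all 21 for 6 genes, with 27.1 CPM of P2ry12, 21.7 of Tmem119 and 17.1 of Olfml3. At the other end, KDEE mice 9, 12 and 14 were above the median of the 21 mice for all 9 genes. WTEE mouse 16, WTSH mice 2 and 23 and KDSH mouse 24 were above it for none. KDSH mouse 24 was also lowest of the 21 in the summed level of the 30 other microglia genes (1022 CPM), of the endothelial and pericyte markers (244 CPM) and of 4 oligodendrocyte precursor markers (278 CPM). Without KDEE mouse 20, 3 of 9 genes had an unadjusted p under 0.05 in KDEE against KDSH (P2ry12, Siglech and Olfml3) and 3 in KDEE against WTEE (P2ry12, Cx3cr1 and Csf1r). Without KDSH mouse 24 none had in KDEE against KDSH. The share of all genes at such a p was not counted in these fits, so these numbers have no background beside them.

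**Figure D4:**
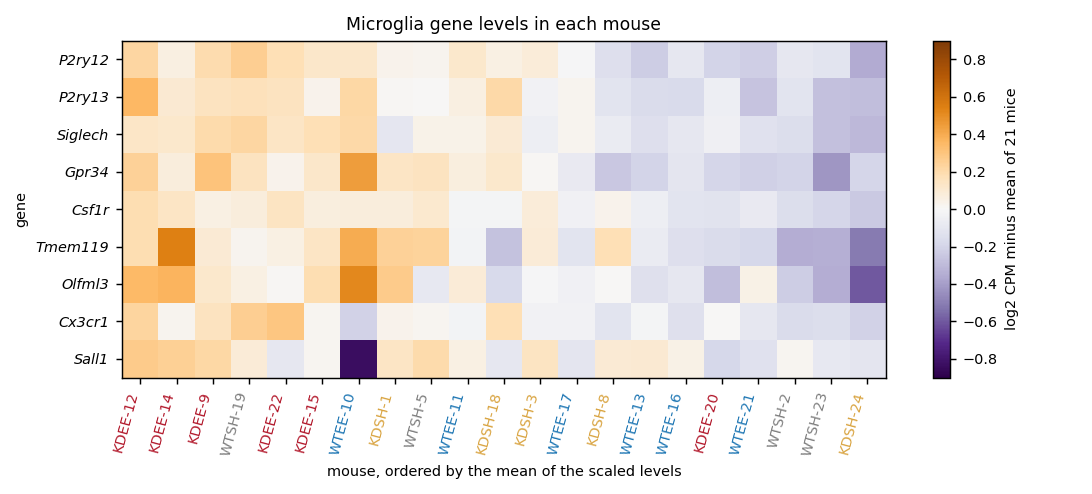
Log2 level of each gene in each of the 21 mice, less the mean of the gene over the mice; orange is above and purple below the mean, mice run from highest to lowest mean of the scaled levels, and label colours mark the groups. KDEE mice 12, 14 and 9 lead on the left, KDSH mouse 24 closes on the right, and WTEE mouse 10 combines high Gpr34, Tmem119 and Olfml3 with low Sall1.

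Across all other genes tested, the one most like the mean of the 9 (each scaled to equal spread) over the 21 mice was Cd68 (r = 0.89), which codes for a lysosomal protein of macrophages. Rnase4 (0.85), Slc7a7 (0.84), Vsir (0.84), Entpd1 (0.84), Vim (0.83), Creg1 (0.83), Kcnn4 (0.83) and Cmtm7 (0.82) were also among the first 10. These values describe the same 21 libraries and come without a test, since the mean of the 9 was formed from genes chosen with results known. Of the first 10, 5 were kept when all 24 libraries were used, 8 without TMM and 5 when group means were not subtracted. Cd68 had rank 10 with all 24 libraries and rank 17 with group means not subtracted. Kcnn4, with a mean of 0.59 CPM, had rank 327 in the former, and Vim rank 163 in the latter. Rnase4, Vsir and Entpd1 stayed among the first 5 in both. The median r of the 30 other microglia genes with this mean was 0.65, with the lowest at −0.23 for Mef2a, against −0.02 over all genes, and 8 of the 30 were among the first 100.

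The gene lists were set beside the 9 genes by the mean log2 level of their genes, which weighs each gene of a list equally. Correlations with the mean of the 9 (group means subtracted, 21 mice, no test) were 0.89 for other microglia genes, 0.75 for ligands and upstream signals, 0.73 for endothelial cells and pericytes, 0.70 for disease-associated microglia genes, 0.65 for astrocytes, 0.55 for oligodendrocytes, 0.53 for oligodendrocyte precursors and 0.47 for choroid plexus. They were 0.33 for monocytes and neutrophils, 0.25 for border macrophages, 0.12 for pituitary, 0.10 for blood and −0.26 for neurons. With the log2 of the summed level of a list in place of the mean, a choice made after seeing the data in which abundant genes weigh most, the correlation was 0.86 for other microglia genes and 0.69 for endothelial cells and pericytes but 0.15 for ligands and upstream signals, 0.41 for astrocytes and 0.56 for disease-associated microglia genes, so the order of the lists depends on this choice. Depth gave 0.12, the share of pairs on no gene −0.43 and the share of structural RNA 0.11. The part of tissue composition and of these measures in the covariation was not tested. All of these values share the scaling of each library.

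Markers of other macrophages and of blood leukocytes had low levels, which do not give numbers of cells. All 9 border macrophage markers passed the filter, with a summed level of 24.5 to 44.2 CPM over the 21 mice against 109.7 to 147.7 for Csf1r alone. Stab1 alone had 15.6 to 31.1 CPM. Of 6 monocyte and neutrophil markers 4 passed, with sums of 0.37 to 4.48 CPM. Plac8, S100a8 and Ly6c2 were at 0 in at least 1 mouse. Choroid plexus genes, by contrast, varied widely between mice, with sums of 29.6 to 4445 CPM in WTSH, 46.2 to 5999 in WTEE, 26.1 to 105.9 in KDSH and 88.5 to 9790 in KDEE. Haemoglobin and other red cell genes summed to 56.1 to 72.8 CPM in WTSH, 56.2 to 392.5 in WTEE, 37.0 to 77.5 in KDSH and 72.6 to 241.7 in KDEE. With the choroid plexus level as a covariate, the log2 differences of the 9 genes between KDEE and KDSH are those given above, and the part of the red cell genes was not tested.

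The signals that act on these cells were followed in 13 genes for ligands, purine metabolism and transforming growth factor beta, and none was called in any contrast. At an unadjusted p under 0.05 there were 1 of 13 for WTEE against WTSH (6.55% of all genes), 2 for KDEE against KDSH (11.6%), 0 for KDSH against WTSH (1%) and 0 for KDEE against WTEE (4.99%), counts near those shares. Nt5e, which codes for the enzyme that turns AMP into adenosine, had the lowest p of the list for housing over both genotypes, with a log2 difference of 0.38 ± 0.09 (SE, edgeR adjusted p = 0.174). Entpd1, which codes for the microglial enzyme that breaks down ATP and ADP, the ligands of the P2Y receptors, covaried with the mean of the 9 genes (r = 0.84) but had a log2 difference for housing of 0.01 ± 0.07 (SE). The r with the mean of the 9 was 0.58 for Tgfb1, 0.30 for Csf1, 0.09 for Cx3cl1 and 0.00 for Il34.

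Beside the 9 genes, the 30 other microglia genes, a list that mixes genes of all microglial states, held 7 at an unadjusted p under 0.05 for WTEE against WTSH (6.55% of all genes), 6 for KDEE against KDSH (11.6%), 0 for KDSH against WTSH (1%) and 1 for KDEE against WTEE (4.99%), all above 0 and none called. Over both genotypes, 14 of 30 had such a p for enriched against standard housing (18.9% of all genes) with a median log2 difference of 0.14 over the 30, where the 9 homeostatic genes had 1 and a median of 0.09 and all genes 0.01. The lowest p values belonged to Ctss (0.31 ± 0.09, SE), a lysosomal protease, to the complement genes C1qa (0.40 ± 0.13) and C1qc (0.35 ± 0.11) and to Rgs10 (0.29 ± 0.09), each with an edgeR adjusted p between 0.196 and 0.202. Of 12 disease-associated microglia genes, 9 had such a p for the same contrast (18.9% of all genes), none called, with Cd9 at 0.41 ± 0.10 (SE, edgeR adjusted p = 0.179). Lists of other cells also held such p values for housing. They numbered 6 of 7 oligodendrocyte markers (median log2 difference 0.25), 7 of 8 choroid plexus genes (2.45) and 5 of 5 red cell genes (1.46), all above 0. Among astrocyte markers it was 1 of 7 (median 0.00) and among neuronal markers 1 of 8 (median −0.05), the latter below 0. The difference between these lists and the 9 genes was not tested.

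The 3 left-out libraries held 15800187 to 39585901 counts on genes, against 27410239 to 71907130 in the 21, and structural RNA took 5.46% to 22.7% of their counts against 0.0329% to 2.48%. With TMM over all 24 libraries, KDSH mouse 6 and WTSH mouse 7 lay within the range of the 21 for 9 of 9 genes, with a median log2 difference from the median of the 21 of 0.06 and −0.03. KDSH mouse 6 was near the top of that range for Tmem119, with 43.8 CPM against a highest of 44.2, and was above the other KDSH mice for Tmem119 and Csf1r. WTSH mouse 4 was below the 21 for 3 genes, Cx3cr1 (35.3 CPM, lowest of the 21 50.9), Tmem119 (20.6, lowest 21.1) and Csf1r (106.4, lowest 106.5), and its median over the 9 was −0.23. In the same library 15.6% of all genes were below the range of the 21 and 15.3% above it. Scaled by total counts alone, WTSH mice 4 and 7 were below the 21 for 8 and 7 genes, with medians of −0.62 and −0.48. That scaling leaves out the TMM factors of these 2 libraries, 0.78 and 0.75, which apply to every gene. The share of all genes below the 21 was not counted under it, so these numbers do not single out the 9 genes. With all 24 libraries in the fit, the unadjusted p of Cx3cr1 for KDEE against WTEE was 0.0569.

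**Figure D5:**
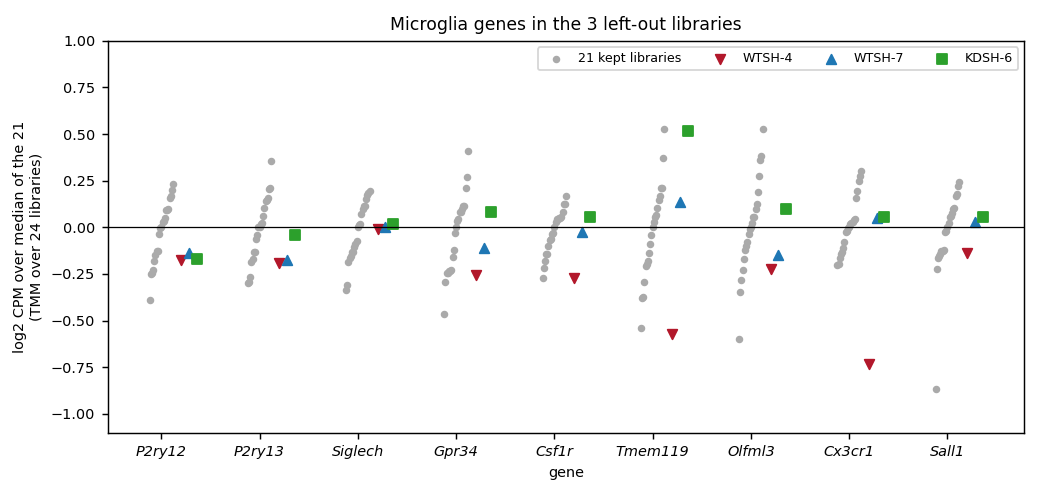
Log2 level of each gene over the median of the 21 kept libraries, scaled by TMM over 24 libraries; grey points are the kept libraries and coloured markers the 3 left-out ones. WTSH mouse 4 lies at −0.73 for Cx3cr1 and −0.57 for Tmem119, below the kept libraries, and KDSH mouse 6 at 0.52 for Tmem119, while the lowest kept point of Sall1 is WTEE mouse 10.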

How the data were processed

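Poly(A) RNA of 24 hippocampi was sequenced in pairs of reads, and each mouse is a replicate. The authors trimmed reads with Skewer, aligned them to GRCm38 with STAR 2.5 and deposited raw counts of unique read pairs per gene symbol from HTSeq 0.6.1p1, without regard to strand. PCR copies cannot be told from molecules. Here edgeR 4.0.16 in R 4.3.3 was run on these counts (TMM, filterByExpr, quasi-likelihood F test), with 21 libraries and 4 groups in 1 model, and p values were adjusted by Benjamini-Hochberg over all genes. Groups came from the labels. Intervals are 95% intervals of the fit. Correlations used log2 CPM (prior count 2) less the group means, with 100000 permutations of mice within groups, adjusted over 36 pairs. Exon lengths and overlaps came from GENCODE M21 (GRCm38), in which 95.1% of the symbols matched 1 gene. Figures used matplotlib 3.10.9. The scripts were tested on simulated data. The members, gene lists and tests were chosen with earlier results of these data known. Named by rule were the 9 genes, the 4 genes or fewer of a list with the lowest p in a contrast, defining markers and the 10 genes most like the mean of the 9, of which 1 is not reported here. Alternatives were DESeq2 1.42.0, other scalings and filters, all 24 libraries, only the groups compared, a robust fit, covariates and leaving out each mouse.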

Additional observations from a re-analysis of the deposited data

Results flagged for a closer look

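A sample stood far from the others of its group, by Dixon's test at its 95% limit, in 5 of the 36 sets of a gene and a group, where chance gives about 1 in 20. In 4 of the 5 it was WTEE mouse 10, with 40.7 CPM of Tmem119 (nearest mouse 30.5), 17.5 CPM of Sall1 (nearest 28.4), 14.7 CPM of Gpr34 (nearest 11.3) and 37.3 CPM of Olfml3 (nearest 27.6). Since these genes covary between mice, the 4 are not independent of each other. The fifth was KDEE mouse 20, with 17.3 CPM of Siglech (nearest 19.4). None of the 9 genes had an effect of enrichment that differed between genotypes at an adjusted p under 0.05 (edgeR), 0 had an unadjusted p under 0.05, and none was above the range of the 21 libraries in a left-out one.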

How the results depend on the processing

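None of the 9 genes was called under any alternative, and the smallest adjusted p of a member was 0.152. Numbers of genes called over the whole table changed with DESeq2, to 2 for WTEE against WTSH, 14 for KDEE against KDSH, 118 for KDEE against WTEE, 41 for enriched against standard housing and 20 for the interaction. With all 24 libraries they were 1 for WTEE against WTSH and 15 for housing, with only the groups compared 1 for KDEE against KDSH, and with the structural RNA share as a covariate 0 for housing. Members at an unadjusted p under 0.05 fell to 0 for KDEE against WTEE with all 24 libraries, to 0 for housing with the structural RNA covariate, and to 0 for KDEE against KDSH and for housing with the choroid plexus covariate. Leaving out 1 mouse gave 0 to 3 members for KDEE against KDSH (0 without KDSH 24, KDEE 9 or KDEE 15, 2 without WTSH 19 and 3 without KDSH 18 or KDEE 20), 1 to 4 for KDEE against WTEE (3 without KDEE 20 and 4 without WTEE 10), 0 to 2 for the interaction (1 without KDSH 18 or WTSH 2 and 2 without KDEE 20 or WTSH 23) and 0 to 1 for MSK1 KD against WT (1 without KDSH 24 or WTSH 19). For housing it gave 0 to 2 members (2 without WTSH 19 and 0 without KDSH 24, KDEE 9, 12, 14 or 15, WTSH 2 or 23 or WTEE 10, 11 or 21). The share of all genes at an unadjusted p under 0.05 was not counted under the alternatives. When 1 mouse was left out, the genes called changed as well. They numbered 0 to 1 for WTEE against WTSH (1 without WTEE mouse 13) and 0 to 6 for housing (6 without WTEE mouse 21, 2 without KDSH 18 or KDEE 20 and 0 without WTSH 5 or 19). The median correlation of the 36 pairs ranged from 0.58 (without KDSH mouse 24) to 0.70 (without WTEE mouse 10). Of the 63 log2 differences of members, 19 took the other sign under at least 1 alternative, none of them called and none over 0.11 in size. With another scaling or filter these were Csf1r in WTEE against WTSH (0.0002 with total counts, 0.0055 with at least 10 counts in every library) and the interaction of Olfml3 (0.0084 with no filter). With all 24 libraries they were Cx3cr1 (0.0059) and Csf1r (0.028) in WTEE against WTSH, Cx3cr1 (0.074) and Sall1 (0.0098) in KDSH against WTSH and the interaction of Tmem119 (−0.017). With the structural RNA covariate they were P2ry13 (−0.041) and Siglech (−0.0029) in WTEE against WTSH and the interaction of Olfml3 (0.11), and with the choroid plexus covariate P2ry13 in WTEE against WTSH (−0.0083), Cx3cr1 in KDSH against WTSH (0.0084) and the interaction of Gpr34 (−0.0046). Leaving out 1 mouse changed the sign of 19. In KDSH against WTSH the range was −0.025 to 0.18 for Tmem119, −0.073 to 0.11 for Gpr34, −0.033 to 0.18 for Olfml3, −0.030 to 0.076 for Csf1r, −0.079 to 0.074 for Cx3cr1, −0.059 to 0.091 for P2ry13, −0.070 to 0.028 for Sall1, −0.13 to 0.0019 for P2ry12 and −0.13 to 0.042 for Siglech. In the interaction the range was −0.11 to 0.10 for Olfml3, −0.01 to 0.21 for Tmem119 and −0.0004 to 0.18 for Gpr34. In WTEE against WTSH the range was −0.051 to 0.048 for Csf1r, −0.062 to 0.088 for P2ry13, −0.020 to 0.20 for Tmem119, −0.056 to 0.11 for Siglech, −0.12 to 0.017 for P2ry12, −0.14 to 0.016 for Cx3cr1 and −0.044 to 0.14 for Gpr34. The cause was not tested. No paired analysis was possible because no mouse number occurs in more than 1 group. Each group held 4 to 6 mice, and no fit at another depth was made.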
